A study of Homo sapiens with 9 samples.

Results

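This account covers the binding of HIF-1α at 10 genes, grouped as subunits of the hypoxia-inducible factors and feedback regulators. Binding was measured by chromatin immunoprecipitation with sequencing (ChIP-seq) in the MYCN-amplified human neuroblastoma line SK-N-BE(2). The genes were HIF1A, EPAS1, HIF3A, ARNT, ARNT2, CITED2, BHLHE40, BHLHE41, ANKRD37 and MXI1. The last 5 are called feedback regulators as a group name, and whether each acts back on the factors was not measured. Each was represented by a window of 40 to 240 kb on hg19, and an interval belonged to a window when its summit lay in it. The windows held 23 of the 9420 regions formed by joining overlapping intervals of the 6 peak lists. Hypoxia libraries (n = 3) came from cells at 1% oxygen for 48 hours and normoxia libraries (n = 3) from cells at 21% oxygen for 48 hours, all with an antibody to HIF-1alpha. Input libraries (n = 3) came from 21% oxygen and could enter only through the local background in the lists. No allele or agent other than oxygen is named in the labels, all groups are 1 cell line, and separate cultures are not stated, so a p-value measures the spread between libraries that may be technical replicates.

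HIF-1 is a pair of an oxygen-regulated α subunit, HIF-1α, and a stable β subunit, ARNT. In oxygenated cells the α subunit is hydroxylated by prolyl hydroxylases, bound by VHL and degraded; in low oxygen it escapes, pairs with ARNT and binds a short core, ACGTG or GCGTG, in DNA. EPAS1 encodes HIF-2α, HIF3A encodes HIF-3α, whose isoforms can restrain the other α subunits, and ARNT2 encodes a second β subunit that is found mainly in neurons. CITED2 competes with HIF-1α for the coactivators p300 and CBP. BHLHE40 and BHLHE41 are basic helix-loop-helix repressors that also act in the circadian clock, MXI1 is a MAX partner that opposes MYC, and ANKRD37 is an ankyrin repeat gene known as a HIF-1 target.

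For each feedback regulator a promoter that holds the core ACGTG is shown. CITED2 and MXI1 have further listed start sites whose promoters lack it. ARNT is shown because its window had no call and its promoter has no such core. The promoters of HIF1A, EPAS1 and HIF3A also lack ACGTG although their windows had calls, and they are not shown. Each of these genes has a listed promoter with the other form of the core, GCGTG, a form that is not marked in the sequences. Each sequence is the 250 bases before a RefSeq start site on GRCh38.p14, read 5′ to 3′ along the gene. ACGTG or its complement CACGT is in capitals, and overlapping matches run together, as in CACGTG. The peak lists are on hg19 and no positions were carried between the builds, so whether an interval covers these bases was not measured.
ANKRD37 (chr4:185396591-185396840, + strand): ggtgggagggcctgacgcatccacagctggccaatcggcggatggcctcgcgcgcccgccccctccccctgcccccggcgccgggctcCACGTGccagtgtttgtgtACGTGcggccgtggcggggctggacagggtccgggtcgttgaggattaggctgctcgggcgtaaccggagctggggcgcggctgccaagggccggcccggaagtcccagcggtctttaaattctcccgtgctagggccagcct
CITED2 (chr6:139374649-139374898, - strand): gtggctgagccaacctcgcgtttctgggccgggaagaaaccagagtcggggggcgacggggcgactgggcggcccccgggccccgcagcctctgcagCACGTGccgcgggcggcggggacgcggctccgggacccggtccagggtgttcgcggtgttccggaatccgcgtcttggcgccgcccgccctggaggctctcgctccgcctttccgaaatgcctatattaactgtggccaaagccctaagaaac
BHLHE40 (chr3:4979187-4979436, + strand): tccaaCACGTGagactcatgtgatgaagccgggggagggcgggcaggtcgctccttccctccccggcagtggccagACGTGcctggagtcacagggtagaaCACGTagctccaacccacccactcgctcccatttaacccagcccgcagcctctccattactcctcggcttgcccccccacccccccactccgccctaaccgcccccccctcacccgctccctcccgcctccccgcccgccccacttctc
BHLHE41 (chr12:26125038-26125287, - strand): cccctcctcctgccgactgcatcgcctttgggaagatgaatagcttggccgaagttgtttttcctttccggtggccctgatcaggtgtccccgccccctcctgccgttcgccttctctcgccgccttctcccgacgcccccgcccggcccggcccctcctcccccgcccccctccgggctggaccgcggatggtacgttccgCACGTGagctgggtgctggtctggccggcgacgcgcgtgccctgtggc
MXI1 (chr10:110209981-110210230, + strand): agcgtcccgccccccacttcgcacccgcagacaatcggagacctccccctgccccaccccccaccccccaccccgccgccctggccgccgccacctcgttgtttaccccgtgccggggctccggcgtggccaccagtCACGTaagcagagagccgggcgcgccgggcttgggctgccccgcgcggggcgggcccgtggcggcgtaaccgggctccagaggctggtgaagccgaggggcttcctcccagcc
ARNT (chr1:150876600-150876849, - strand): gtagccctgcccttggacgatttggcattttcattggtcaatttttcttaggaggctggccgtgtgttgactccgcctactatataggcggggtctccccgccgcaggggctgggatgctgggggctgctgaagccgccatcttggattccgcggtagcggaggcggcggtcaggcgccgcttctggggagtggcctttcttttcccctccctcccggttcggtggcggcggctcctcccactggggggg

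ACGTG was present on either strand before at least 1 listed start site of 5 of the 9 genes found in the promoter table, and these 5 were all 5 feedback regulators; ARNT2 was not matched. The 4 subunit genes matched, HIF1A, EPAS1, HIF3A and ARNT, had no ACGTG in this window. Over all genes in the table the share with ACGTG was 21.7% (5935 of 27305). Counted by promoter, 5 of the 16 listed for these genes had ACGTG, against 18.5% of all promoters. Of the promoters shown, that of BHLHE40 held 3 separate matches, that of ANKRD37 held 2, and those of CITED2, BHLHE41 and MXI1 held 1 each. With GCGTG counted too, 8 of the 9 genes had a match, against 47.4% of all genes; the exception was ARNT. A match describes letters, not a bound site.

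The hypoxia lists had 1408, 5833 and 7619 intervals in hypoxia 1, 2 and 3, against 75, 32 and 109 in normoxia 1, 2 and 3. Depth, taken from the genome-wide background, was 5.31 to 6.62 reads per kb in hypoxia and 6.02 to 6.69 in normoxia. The fragment extension, which also enters the depth, was inferred as the shortest interval in each list. It was 48 bp in hypoxia 1 and 46 to 47 bp in normoxia, but 155 and 167 bp in hypoxia 2 and 3. Reads and folds of those libraries are therefore not on the scale of the other 4 and describe a site within its own list. Among the 50 calls in the gene windows none stood on a local background 10 or more times the genome-wide one; the highest multiple was 5.23, at EPAS1 in hypoxia 2.

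HIF-1α was called in hypoxia at 8 of the 10 genes and in normoxia at 1, ANKRD37. Regions that 2 or 3 of the hypoxia lists called, here named replicated, were present at all 3 α subunit genes, at neither β subunit gene and at all 5 feedback regulators. Across the genome such a region was present in 10.2% of 100 kb tiles, in 5.6% of 50 kb tiles and in 17.9% of 200 kb tiles; tiles include stretches without genes, whereas each window was placed on a gene. A normoxia call was found in 0.389% of 100 kb tiles, 0.196% of 50 kb tiles and 0.732% of 200 kb tiles. The windows held 16 replicated regions, 1.62 per 100 kb, against 0.134 per 100 kb over the genome. The feedback regulators had 3.55 per 100 kb of window and the α subunits 1.52. All the genes were chosen with earlier results of these data known, so these densities describe the genes and test nothing.

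**Figure D1:**
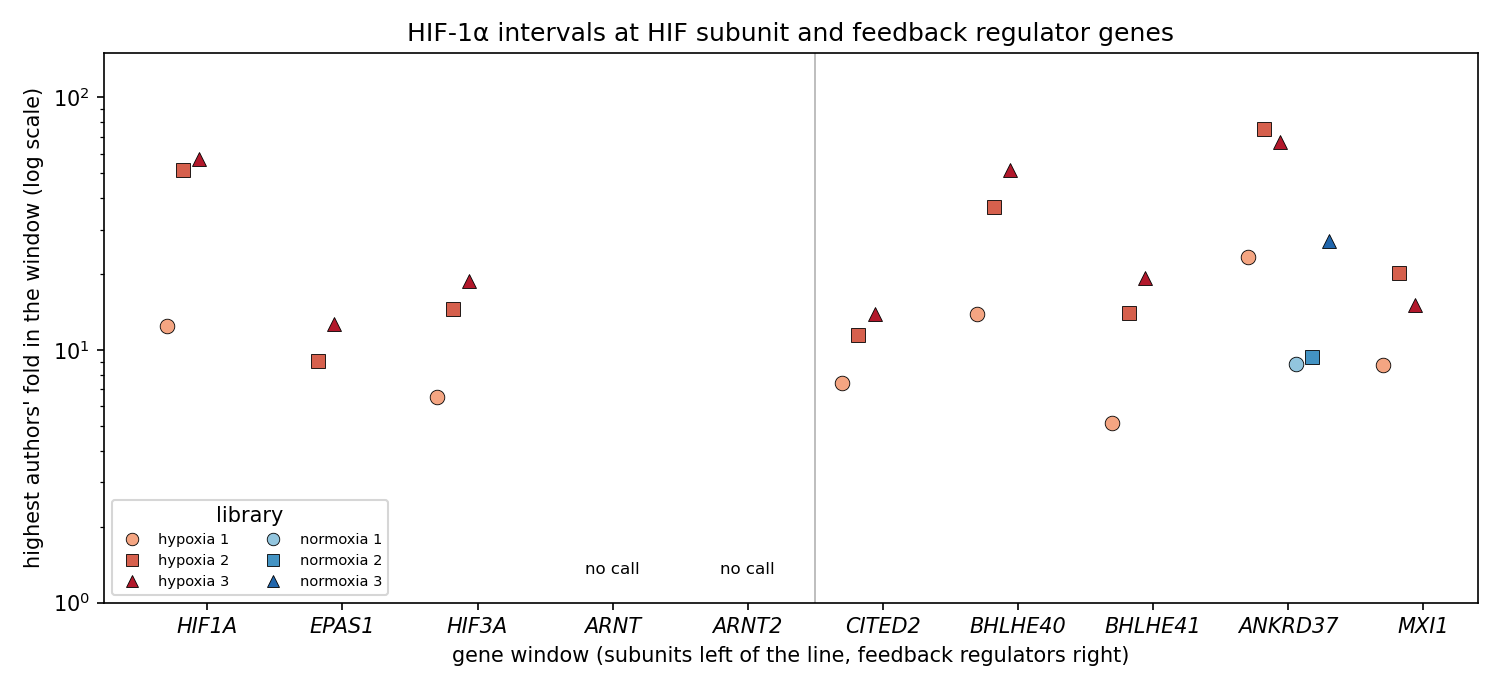
The highest authors' fold in each gene window (log scale) is plotted for hypoxia 1, 2 and 3 (red shades) and normoxia 1, 2 and 3 (blue shades), 1 point per library with a call. Only ANKRD37 has normoxia points, at 8.84, 9.41 and 26.9, and ARNT and ARNT2 have no point. Folds of hypoxia 2 and 3, with the longer extension, are not on the scale of the other libraries.

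In 6 of the 10 windows every hypoxia list had more intervals than every normoxia list: HIF1A, HIF3A, CITED2, BHLHE40, BHLHE41 and MXI1. BHLHE41 lost this separation when only intervals with −log10 q of at least 5, or with a fold of at least 6, were kept (exact permutation p = 0.4 in both cases), since its call in hypoxia 1 was below both. Every hypoxia count exceeded every normoxia count in 3.02% of 100 kb tiles of the genome, in 1.54% of 50 kb tiles and in 5.79% of 200 kb tiles. For each of the 6 genes the two-sided exact permutation test over the 6 libraries gave p = 0.1, below which 3 against 3 libraries cannot go. The other 4 windows were EPAS1, which hypoxia 1 did not call, ANKRD37, which normoxia called, and ARNT and ARNT2.

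HIF1A, the gene of the precipitated protein, had 1 region, chr14:62217609-62218567, and it was among the strongest of the lists. The authors' fold there was 12.5, 51.8 and 56.9 in hypoxia 1, 2 and 3. Normoxia lists had no call. It ranked 131 of 1408, 67 of 5833 and 61 of 7619 by fold within the hypoxia lists. Behind the summit lay 22, 134 and 141 reads, and the 3 summits fell within 34 bp of each other, at 62217991, 62218025 and 62218009. The site lay 78 kb into the 100 kb window and 22 kb from its end. Intervals numbered 2, 1 and 1 in hypoxia and 0, 0 and 0 in normoxia (mean 1.33 ± 0.577 and 0 ± 0, SD, n = 3 each), since hypoxia 1 split the region in 2.

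EPAS1, encoding HIF-2α, was called with lower folds than HIF1A and at several places, in hypoxia 2 and 3 without a call in hypoxia 1. Its 3 replicated regions were chr2:46547461-46547734, chr2:46559326-46559674 and chr2:46567141-46567564, separated by 11.9 and 7.88 kb. The first had folds of 9.03 and 12.7 in hypoxia 2 and 3, the second 4.64 and 5.33, and the third 6.35 and 7.69. A further region, chr2:46566446-46566654, was called in hypoxia 3 alone with a fold of 5.55. Intervals numbered 0, 3 and 4 in hypoxia and 0, 0 and 0 in normoxia, so the groups overlapped at 0 (mean 2.33 ± 2.08 and 0 ± 0, SD, n = 3 each; exact permutation p = 0.4). The calls at EPAS1 rest on the long-extension libraries.

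HIF3A had 1 region, chr19:46802164-46802684, in all 3 hypoxia lists and in no normoxia list. Its fold was 6.51, 14.6 and 18.8 in hypoxia 1, 2 and 3, from 11, 37 and 46 reads, and every hypoxia list had exactly 1 interval there. The rank by fold was 624 of 1408 in hypoxia 1 but 510 of 7619 in hypoxia 3. The 3 summits were spread over 76 bp.

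ARNT and ARNT2, the β subunit genes, had no interval in any of the 6 lists over windows of 110 and 240 kb. These are calls, not levels: binding too weak to be called is not seen in a peak list.

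CITED2 was called as a pair of neighbouring regions. The stronger, chr6:139696424-139697140, had folds of 7.41, 11.5 and 13.9 in hypoxia 1, 2 and 3, from 10, 21 and 44 reads, and summits within 49 bp. The other, chr6:139695653-139696000, had folds of 6.46 and 4.01 in hypoxia 2 and 3 and no call in hypoxia 1. Their summits were 0.795 kb apart. No normoxia list had a call in the window, so intervals numbered 1, 2 and 2 in hypoxia and 0, 0 and 0 in normoxia.

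BHLHE40, a repressor gene, had the most replicated regions of the feedback regulators together with BHLHE41, 3 each. The strongest at BHLHE40 was chr3:5028421-5028982, with folds of 13.9, 36.8 and 51.4 in hypoxia 1, 2 and 3, from 18, 77 and 96 reads. It ranked 101 of 1408, 126 of 5833 and 72 of 7619 by fold. The next, chr3:5020704-5021049, lay 7.79 kb away with folds of 6.83, 12.5 and 17, and 0.553 kb from it chr3:5019958-5020679 was called in hypoxia 2 and 3 with folds of 7.81 and 9.54. A further region was called in hypoxia 3 alone, with a fold of 5.21. Intervals numbered 2, 3 and 4 in hypoxia and 0, 0 and 0 in normoxia (mean 3 ± 1 and 0 ± 0, SD, n = 3 each). At least 3 replicated regions in a stretch of this width were found in 0.186% of the 50 kb tiles of the genome.

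BHLHE41, the close relative of BHLHE40, showed a like arrangement of 1 region apart and others near each other. The region in all 3 hypoxia lists was chr12:26267343-26267631, with folds of 5.16, 13.5 and 19.2. In hypoxia 1 it rested on 6 reads at the summit and ranked 1009 of 1408, whereas in hypoxia 3 it ranked 495 of 7619. At 10.5 kb from it lay chr12:26277653-26278076, with folds of 14 and 12.3 in hypoxia 2 and 3, and 0.973 kb further chr12:26278742-26279089, with folds of 7.81 and 4.93. A further region was called in hypoxia 3 alone, with a fold of 6.71. Intervals numbered 1, 3 and 4 in hypoxia and 0, 0 and 0 in normoxia.

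MXI1, the MYC antagonist gene, had 1 region in all 3 hypoxia lists, chr10:111969327-111970110, with folds of 8.75, 20.2 and 15 in hypoxia 1, 2 and 3, from 12, 43 and 59 reads. A neighbour 0.711 kb away, chr10:111970386-111970830, had folds of 6.14 and 7.42 in hypoxia 2 and 3. A further 4 regions were called in hypoxia 3 alone, with folds of 4.77 to 5.83; 3 of them stood close together 35.7 to 36.5 kb into the window. Intervals numbered 1, 2 and 6 in hypoxia and 0, 0 and 0 in normoxia (mean 3 ± 2.65 and 0 ± 0, SD, n = 3 each), and hypoxia 3 supplied most of them. Counted as regions of at least 2 hypoxia lists, MXI1 had 2.

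ANKRD37 differed from the other 9 genes in being called in all 6 libraries, as were 0.212% of all joined regions (20 of 9420). Of the 8 regions of the windows in all 3 hypoxia lists it was the 1 with a normoxia call, against 7.1% of such regions over the genome. Its region, chr4:186316992-186318319, was the longest in the windows at 1328 bp and ranked 25 of 1408, 22 of 5833 and 36 of 7619 in hypoxia 1, 2 and 3. The authors' fold was 23.3, 74.7 and 66.6 in hypoxia 1, 2 and 3, against 8.84, 9.41 and 26.9 in normoxia 1, 2 and 3. Of the hypoxia folds only that of hypoxia 1 is on the scale of normoxia. Among the normoxia lists it ranked 4 of 75, 8 of 32 and 3 of 109 by fold. Normoxia 3 stood above normoxia 1 and 2 and above hypoxia 1, so the folds of the groups overlap. The interval counts of 2, 1 and 1 in hypoxia and 1, 1 and 1 in normoxia did not separate the groups (exact permutation p = 1).

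The summits at ANKRD37 lay near each other at both oxygen levels, but less closely than among the hypoxia lists alone, where the spread was 20 bp. They fell at 186317642, 186317625 and 186317622 in hypoxia 1, 2 and 3, and at 186317700, 186317595 and 186317588 in normoxia 1, 2 and 3, all 6 within 112 bp. Normoxia 3 listed 4 summits in its interval and normoxia 2 listed 2; hypoxia 3 listed a second one at 186317864, near the normoxia 3 summit at 186317851. Summit reads can be compared among the 4 short-extension libraries: hypoxia 1 had 42, and normoxia 1, 2 and 3 had 12, 12 and 36. These are reads at the summit of smallest p in each library. The other normoxia 2 summit, at 186317703, had 15 reads on a higher local background, and with it the ratio to normoxia 2 would be lower. After depth correction hypoxia 1 had 3.54 times the reads of normoxia 1 (exact 95% counting interval 1.83 to 7.38), 3.18 times those of normoxia 2 (1.64 to 6.64) and 1.1 times those of normoxia 3 (0.69 to 1.77). The last interval includes 1. Over all low-background regions that hypoxia 1 shared with a normoxia list, the median ratio was 2.2 for normoxia 1 (24 regions), 1.94 for normoxia 2 (22 regions) and 1.61 for normoxia 3 (72 regions). These ratios compare single libraries, so they have no test over replicates.

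**Figure D2:**
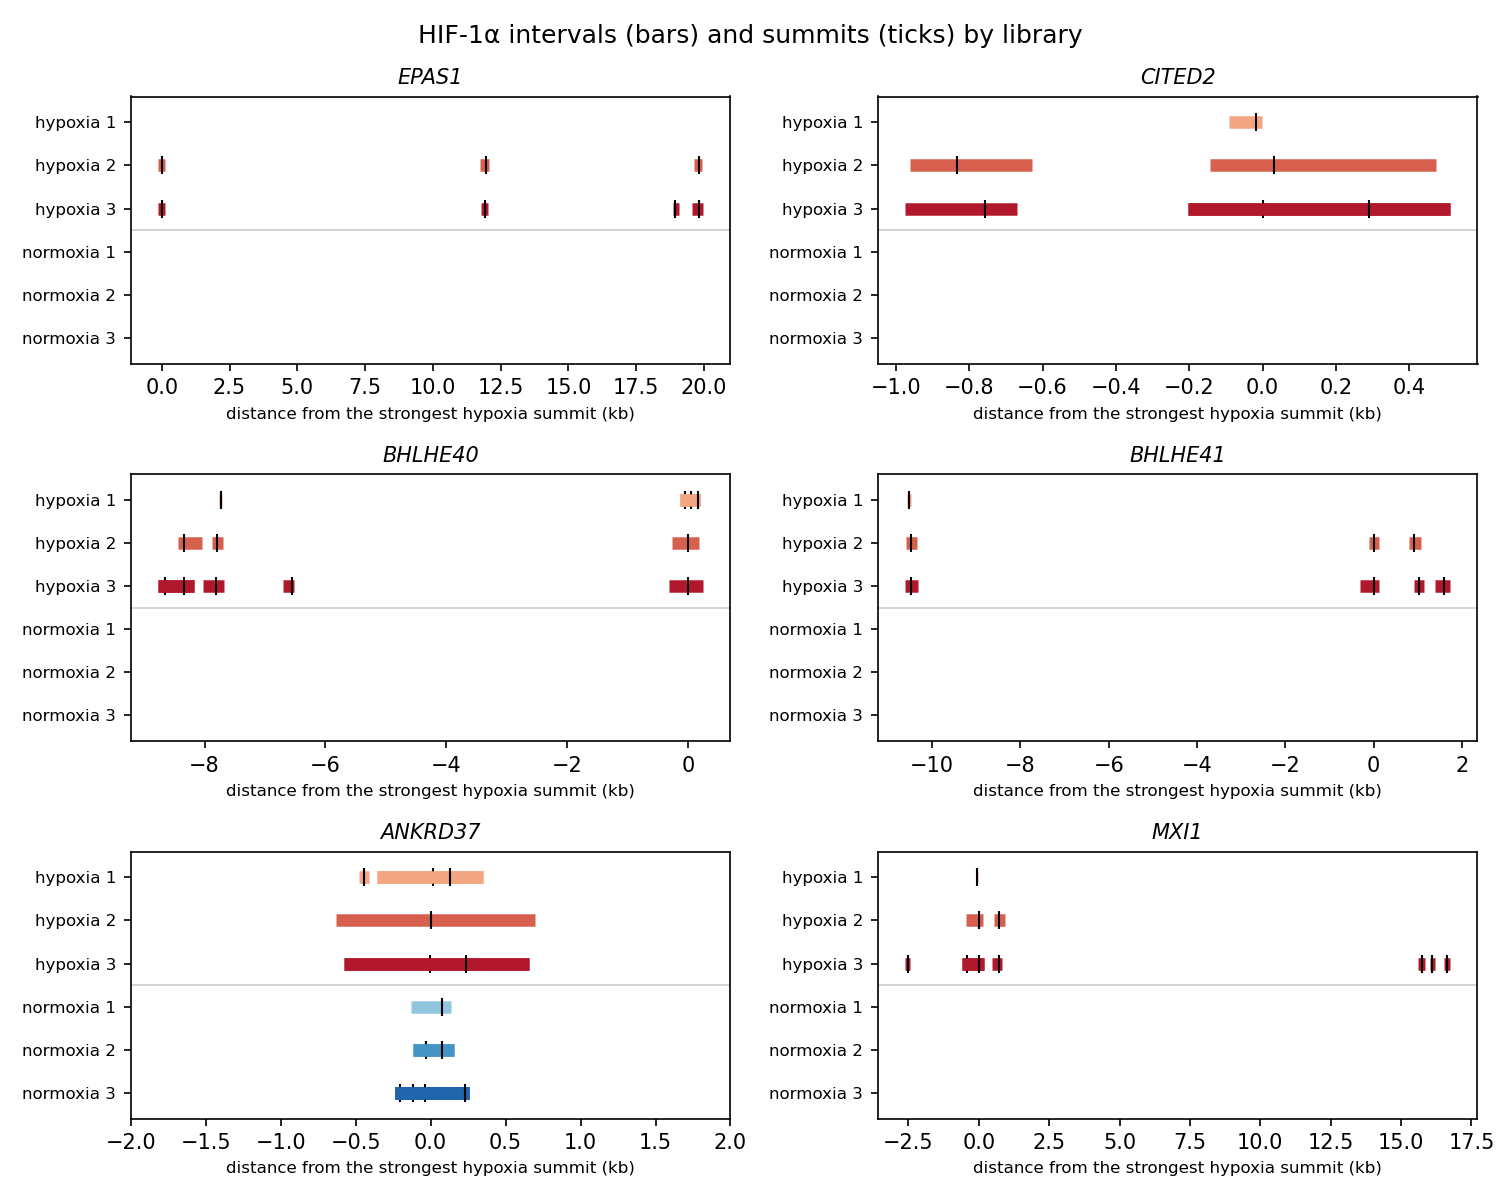
Intervals (bars) and their summits (ticks) of each library are drawn at true scale along 6 of the gene windows, as distance in kb from the median hypoxia summit of the strongest region; hypoxia lists are the upper 3 rows. Bars in the normoxia rows appear at ANKRD37 and in no other panel, and the extra bars of MXI1 near 16 kb belong to hypoxia 3.

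Of the 23 regions in the windows, 16 (69.6%) were replicated and 8 were in all 3 hypoxia lists. Among all 9395 regions with a hypoxia call these shares were 44.0% and 11.5%. The remaining 7 were called in hypoxia 3 alone, with folds of 4.77 to 6.71, so hypoxia 1 and 2 had no call of their own in the windows. The number of replicated regions rested on hypoxia 2 and 3: with either of them left out 8 remained called in both other lists, and with hypoxia 1 left out 16. Of the 16, 15 (93.8%) had no normoxia call, against 97.8% of all 4136 replicated regions, a share that the short normoxia lists make high everywhere.

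The replicated regions stood above the middle of their lists in most cases. The fold exceeded the list's median in 7 of 8, 12 of 16 and 13 of 16 regions in hypoxia 1, 2 and 3. Their median rank was at 27.6%, 15.7% and 12.1% of the list length from the top, against 42.9%, 37.5% and 29.7% for all replicated regions. The order of sites was similar at the upper end, with ANKRD37, HIF1A and the strongest BHLHE40 region first in each hypoxia list. Below them it varied: BHLHE41 region 1 was at 71.7% in hypoxia 1 and 6.5% in hypoxia 3.

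**Figure D3:**
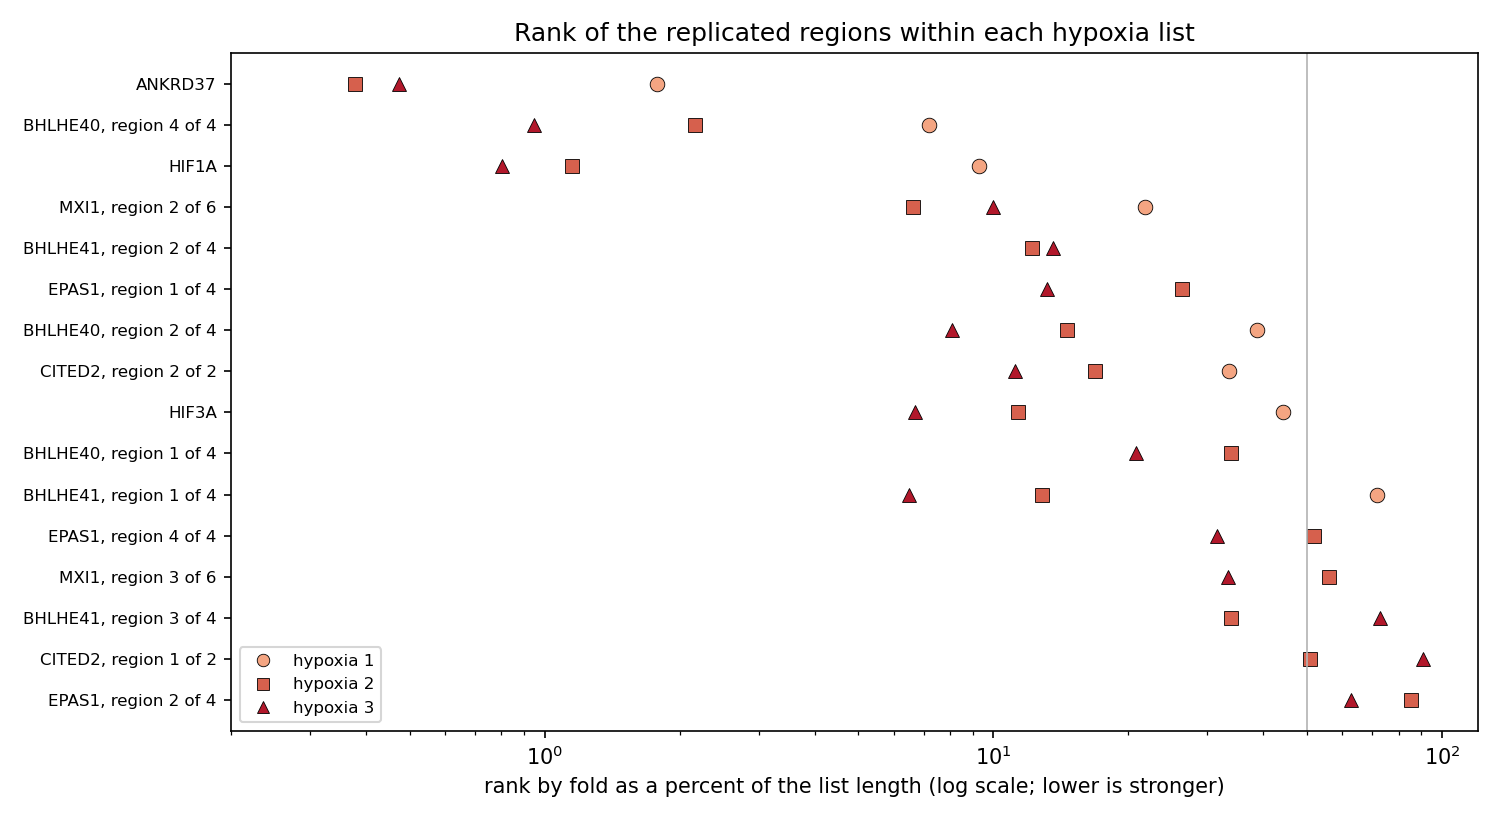
Rank by fold as a percent of the list length (log scale, lower is stronger) is shown for the 16 replicated regions in hypoxia 1, 2 and 3, with the middle of the list as a grey line at 50. ANKRD37, from 0.377 to 1.78, BHLHE40 region 4 and HIF1A lead, and the lowest-ranked points are CITED2 region 1 in hypoxia 3, at 90.9, and EPAS1 region 2 in hypoxia 2, at 85.4.

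In hypoxia 2 and 3, sites at some of these genes stood in close pairs. Of the 16 replicated regions, 8 had another replicated region within 1 kb, in pairs at CITED2, BHLHE40, BHLHE41 and MXI1, against 4.13% of all 4136. No pair was seen in hypoxia 1, which called at most 1 region of each, so the pairs rest on the long-extension libraries. Whether a pair is 1 stretch of binding that was split in calling was not tested. Within 20 kb the numbers were 13 of 16, against 25.4% of all. Summits of a replicated region differed between hypoxia libraries by a median of 37.5 bp, from 4 bp at BHLHE41 region 2 to 107 bp at BHLHE41 region 3, and the median over all replicated regions was 37 bp.

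A missing normoxia call was set beside the reads a call would have taken. The number needed was taken from the lowest −log10 p in each normoxia list, since the calling cutoff is not stated. At the genome-wide background it was 6 reads at the summit in each normoxia list, and 6 to 10 at the highest local background seen at the site in hypoxia. In normoxia 2 the lowest −log10 q was 1.645, against 1.303 in normoxia 1, so a call there may have taken fewer reads. At HIF1A the 22 reads of hypoxia 1, scaled to the depth of normoxia 1, 2 and 3, came to 22.2, 20 and 20.8, against 8, 9 and 8 needed. At the strongest BHLHE40 region 18.2, 16.4 and 17 stood against 6, 7 and 6. These are expected reads without counting error, and the background is that of hypoxia, since a normoxia list gives none at a site it did not call. At BHLHE41 region 1 the scaled reads, 6.06, 5.45 and 5.67, were below the 7 needed at the highest hypoxia background, that of hypoxia 3. At the genome-wide background, where 6 were needed, those for normoxia 1 reached the number and those for normoxia 2 and 3 did not. HIF3A, CITED2, the other BHLHE40 region and MXI1 lay between, at 1.01 to 1.39 times the reads needed at the highest hypoxia background. Over the 7 sites and 3 normoxia lists without a call, hypoxia 1 reads reached the number needed in 19 of 21 comparisons at the genome-wide background and in 18 at the highest hypoxia background. They reached 2 times that number in 7 and 6. These sites were taken because hypoxia 1 had called them, and its background and extension were close to those of the normoxia libraries. Reaching the number needed was thus largely fixed by that choice, and the tally draws no conclusion on the missing normoxia calls.

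**Figure D4:**
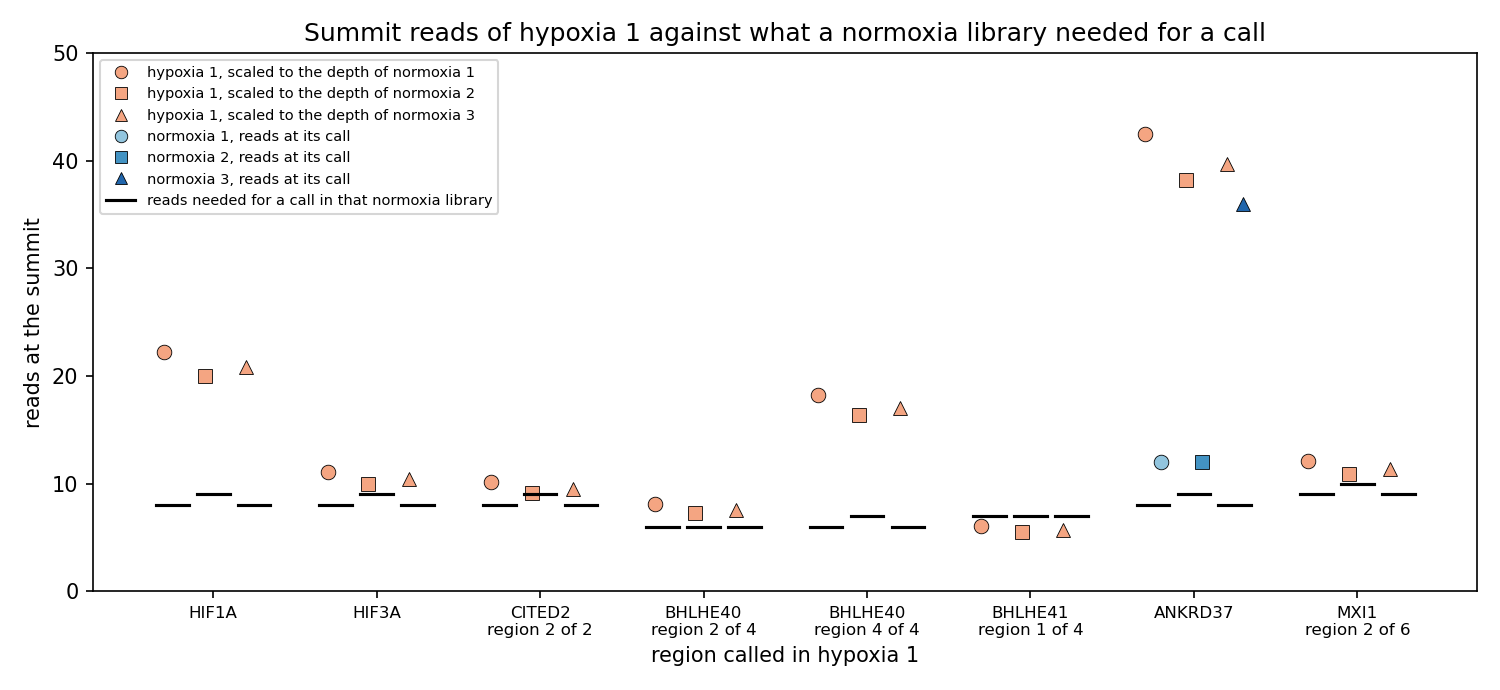
Summit reads of hypoxia 1 scaled to the depth of each normoxia library (orange), reads of the normoxia library where it had a call (blue), and the reads needed for a call there at the highest hypoxia background (black lines) are shown for the 8 regions called in hypoxia 1. At ANKRD37 normoxia 3, with 36 reads, lies close to hypoxia 1, while normoxia 1 and 2, with 12 each, lie just above their lines.

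The lists carry no gene annotation, so a region is tied to a gene by its window alone, and a window can hold parts of neighbouring genes. In the gene order of GRCh38.p14, the coding genes next to ANKRD37 are LRP2BP and UFSP2, those next to HIF1A are TMEM30B and SNAPC1, and those next to HIF3A are IGFL1 and PPP5C. No RNA was measured in these samples, so nothing is given here on the expression of the genes.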

How the data were processed

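HIF-1α ChIP-seq peak lists of 3 hypoxia and 3 normoxia libraries were analysed. Reads were aligned to hg19 with BWA 0.7.17 and peaks called with MACS2, per the submitters' processing notes, which name no MACS2 settings. The authors deposited 1 narrowPeak list per sample, not pooled, with a fold (a ratio of summit reads plus 1 to local background plus 1), −log10 p, −log10 q, and a score; these values, −log10 q down to 1.30, are the authors'. The deposited score was not used.

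Rows of 1 interval were merged, keeping the summit of smallest p, on chromosomes 1 to 22, X and Y; intervals sharing at least 1 bp were joined into regions. Summit reads were recovered from the deposited fold and −log10 p (tolerance 0.001). Every one of the 16463 summits gave a whole number. More than 1 solution was found for 165 summits, of which 1 summit lay in the gene windows, and the closest solution was taken. The lowest local background over the shortest interval gave the depth, at which a median of 9 to 24 reads lay behind an interval; intervals given cover counting error only. Positions are 1-based. Python 3.11.15, NumPy 2.4.6, pandas 2.3.3 and SciPy 1.17.1 were used, and the code was tested on simulated data. Genes, windows and tests were chosen with earlier results of these data known; all 10 genes are named, and every replicated or normoxia-called region is described. Window counts were compared by exact permutation tests. Alternatives were thresholds, window assignment, list length, left-out libraries, a replicate block, overlap and tile width. The pathway gene list was not run, since it needs an hg19 annotation.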

Additional observations from a re-analysis of the deposited data

How the results depend on the processing

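The 10 windows kept 7 or 8 genes with a replicated hypoxia region and 1 gene with a normoxia call, and 5 to 7 windows where all hypoxia counts exceeded all normoxia counts, under every alternative run. Replicated regions (16, of which 15 had no normoxia call) numbered 10 and 9 with each list cut to the length of the shortest hypoxia list, 8 and 7 when a call in each hypoxia list was required, and 8 and 7 with hypoxia 1 as the only hypoxia library, an alternative chosen after the data were seen; all 3 keep fewer calls by construction. With 1 library left out they ran from 8 to 16 and from 7 to 15. The difference in ANKRD37 counts, 0.33 intervals, was −0.33 when every summit row was counted and 0 when joined regions were counted, as hypoxia 1 split the region and normoxia 3 listed 4 summits. As a replicate block, same-numbered libraries left each difference as it was, and the 6 genes with p = 0.1 had an exact sign-flip permutation p = 0.25, the smallest that 3 pairs allow. Deviations of same-numbered libraries had correlations of −0.0126 to 0.0835 across joined regions, and the own number gave the best match for 3 of 6, so the pairing was not used. The reads needed for a normoxia call were reached in 19 of 21 comparisons at the genome-wide background and in 18 at the highest hypoxia background; both were chosen after the data were seen. Depth and list length limit what a missing call can show.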
